A study of Arabidopsis thaliana with 6 samples.

Results

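The 41 genes described here encode the enzymes of the Calvin cycle and of photorespiration in Arabidopsis thaliana, from a table of 38192 genes. They were taken by locus identifier and comprise 24 genes for the Rubisco small subunits, Rubisco activase, the other Calvin cycle enzymes and the CP12 proteins, and 17 genes for photorespiratory enzymes. Transcripts were counted in the aerial parts of 9-day-old seedlings of wild-type Col and of cpl2-2, each genotype being represented by 3 libraries. The labels give cpl2-2 as a knockout of CPL2, a C-terminal domain phosphatase-like gene. Both genotypes grew at 23 ± 2 °C in long days of 16 h light and 8 h dark. The question of the comparison is which transcripts differ between the genotypes.

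The Calvin cycle fixes carbon dioxide in the chloroplast stroma. Rubisco joins carbon dioxide to ribulose bisphosphate, the reduction phase turns the resulting phosphoglycerate into triose phosphate with ATP and NADPH from the light reactions, and the regeneration phase rebuilds ribulose bisphosphate. Rubisco also accepts oxygen, which yields phosphoglycolate, and photorespiration returns most of that carbon to the cycle through the chloroplast, the peroxisome and the mitochondrion. In leaves these are among the most abundant nuclear transcripts.

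The 6 libraries held 18299294 to 21098728 counts each. Levels are CPM (counts scaled to a common library size) after TMM scaling, which corrects library totals for differences in RNA composition, and calls were made at an adjusted p below 0.05 in edgeR's quasi-likelihood test over all 19302 genes tested. CPL2 (AT5G01270) had 391, 378 and 393 counts in wild-type libraries and 198, 229 and 222 in cpl2-2, so transcript of the locus remained at 56.6% of the wild-type level. All 7 markers of green aerial tissue had counts, with a summed level of 8633 to 8860 CPM in the wild type and 7460 to 7576 CPM in cpl2-2. The 8 root markers summed to at most 2.81 CPM in any library, with EXPA7 and EXPA18 at 0 in every library, and 5 of 7 seed storage markers were at 0 in every library.

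Of the 41 genes, 40 had enough counts for the test. In cpl2-2, 20 of the 40 were lower, 6 were higher and 14 did not pass the test, so 65% were called, where 27.3% of all genes tested were called (14.1% higher and 13.3% lower). The falls were small, from 5.0% to 25.4% of the wild-type level, and 1 member, the transketolase gene TKL2, changed by at least 2-fold. The libraries of the genotypes did not overlap for 30 members, with all cpl2-2 libraries below the wild type in 23 and above it in 7, where 39% of all genes tested did not overlap. The median log2 fold change was -0.08 over the members and 0.00 over all genes tested. Scaled by library totals alone, 15 members were lower and 10 higher and the median of the members was -0.01. In that setting 1666 of the 19302 genes tested were lower, fewer than were higher. The shares of all genes given above are for the TMM scaling. The balance of falls and rises among the members thus depends on the scaling. With library totals the median of all genes tested was 0.07, so the median of the members lay below it under either scaling.

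High level went with this share. Among the 1669 genes tested that averaged 100 CPM or more, 63.9% were called, 44.7% lower and 19.2% higher, and of the 37 members in that class 54.1% were lower and 10.8% higher. Their medians were also close, at -0.07 for the class and -0.08 for its members. Among the 118 genes that averaged 1000 CPM or more, 79.7% were called (66.1% lower, 13.6% higher), and 18 of the 27 members among them (66.7%) fell beside 60 of the 91 other genes (65.9%). Of the 10 members between 100 and 1000 CPM, 2 (20%) fell and 4 (40%) rose, beside 43.2% and 19.5% of the 1541 other genes in that range. The share of members that fell was thus close to that of other genes at 1000 CPM or more, and below it from 100 to 1000 CPM. Of the 7 green aerial markers, several of which are photosynthesis genes, 5 were called lower, and their part in the members' falls was not tested. In these bulk samples, fewer green cells and less RNA per green cell cannot be told apart.

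**Figure D1:**
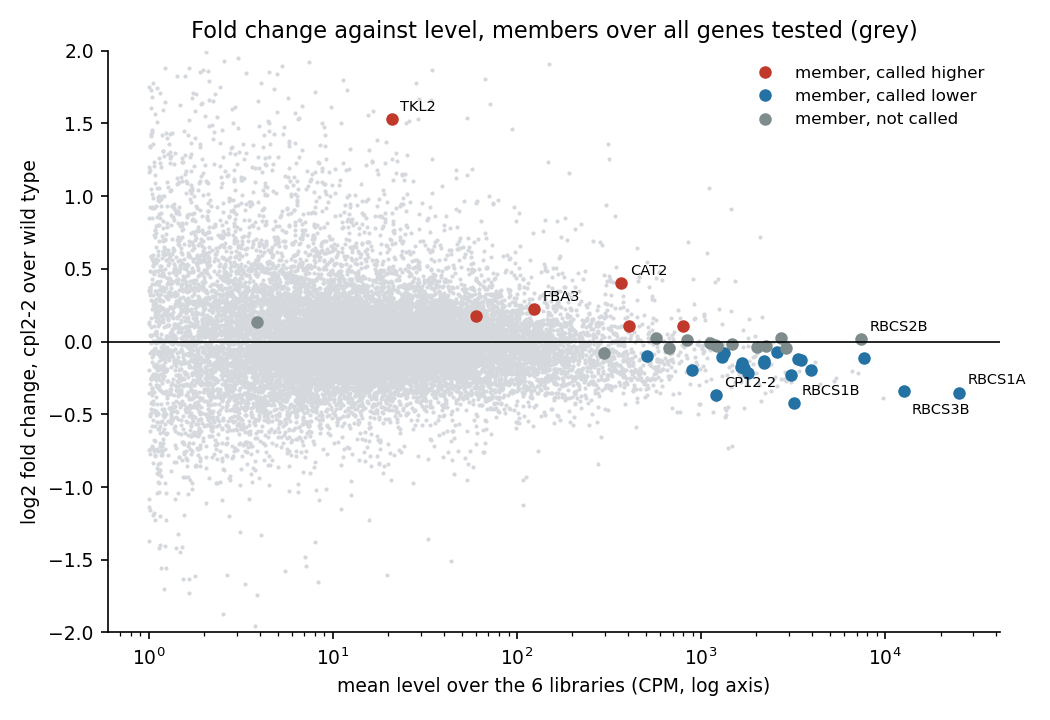
Log2 fold change of cpl2-2 over wild type against the mean CPM of the 6 libraries (log axis). Coloured points are the 40 tested members and grey points 17894 genes tested with at least 1 CPM; 92 such genes lie beyond the axis. Members called lower sit at the right, at 506 CPM or more, and the 6 called higher at 796 CPM or less.

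The Rubisco small subunit genes (RBCS) dominated the set and did not change alike: RBCS1A, RBCS1B and RBCS3B fell by 21.1% to 25.4%, and RBCS2B did not pass the test. The small subunit joins the chloroplast-encoded large subunit in the holoenzyme. RBCS1A lies on chromosome 1, and RBCS3B, RBCS2B and RBCS1B lie close together on the minus strand of chromosome 5. RBCS1A (AT1G67090, chromosome 1, 25048158 to 25049667, minus strand) stood at 28059.9, 27921 and 29001 CPM in wild-type libraries and 22066, 21599.5 and 22926 CPM in cpl2-2 libraries (log2 fold change -0.35 ± 0.02 (SE) at an adjusted p of 3.8e-23). Every cpl2-2 library was below every wild-type library, as was the case for RBCS3B and RBCS1B. RBCS3B (AT5G38410, chromosome 5, 15376988 to 15378642, minus strand) stood at 14092, 13901 and 14353 CPM in wild-type libraries and 11428, 10503 and 11462 CPM in cpl2-2 libraries (log2 fold change -0.34 ± 0.02 (SE) at an adjusted p of 3.3e-19). RBCS1B (AT5G38430, chromosome 5, 15383167 to 15385320, minus strand) was the least abundant of the 4 and had the largest fall among all members, with 3506, 3891 and 3528 CPM in wild-type libraries and 2709.6, 2908 and 2537 CPM in cpl2-2 libraries (log2 fold change -0.42 ± 0.03 (SE) at an adjusted p of 3.8e-16). RBCS2B (AT5G38420, chromosome 5, 15380907 to 15382071, minus strand) stood at 7214, 7328 and 7453 CPM in wild-type libraries and 7375, 7319.6 and 7577 CPM in cpl2-2 libraries. The libraries of the genotypes overlapped for RBCS2B (log2 fold change 0.02 ± 0.02 (SE) at an adjusted p of 0.50), and with library totals it was called higher (log2 fold change 0.09, adjusted p = 0.00010).

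**Figure D2:**
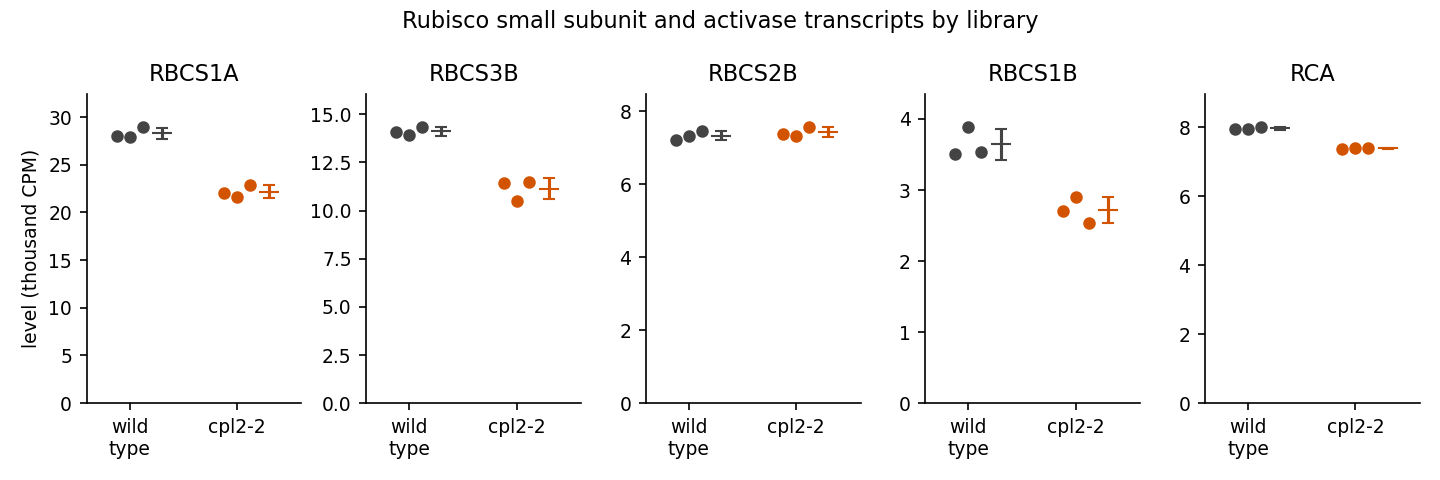
Levels of the 4 RBCS genes and of Rubisco activase (RCA) in units of 1000 CPM, 1 point per library, with the mean ± SD of the 3 libraries of each genotype beside the points; each axis starts at 0. The genotypes are separate in every panel but that of RBCS2B, where 7214 to 7453 CPM in the wild type stand beside 7320 to 7577 CPM in cpl2-2.

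A ratio within a library needs no scaling. RBCS2B made up 13.7% ± 0.086 of wild-type RBCS counts and 17.1% ± 0.19 of those in cpl2-2 (SD, n = 3; two-sided exact permutation p = 0.1, the smallest that 3 libraries against 3 can give). RBCS1A made up 53% ± 0.369 and 51.1% ± 0.441 (n = 3, exact permutation p = 0.1). Neither share overlapped between the genotypes. The shares of RBCS3B (26.4% and 25.6%, exact permutation p = 0.2) and RBCS1B (6.82% and 6.26%, exact permutation p = 0.3) overlapped.

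The 4 RBCS genes are close copies, which limits how reads can be assigned to each. The coding part of their first exons is shown because it has an equal length in all 4. Their untranslated parts were not compared. The stretches are read 5′ to 3′ from the start codon (RefSeq, TAIR10.1), and capitals mark the 32 of 171 positions at which the 4 genes are not all the same.
RBCS1A: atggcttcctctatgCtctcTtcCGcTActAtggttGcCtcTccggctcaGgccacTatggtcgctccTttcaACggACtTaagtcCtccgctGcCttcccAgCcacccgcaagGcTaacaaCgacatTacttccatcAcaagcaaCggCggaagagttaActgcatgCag
RBCS1B: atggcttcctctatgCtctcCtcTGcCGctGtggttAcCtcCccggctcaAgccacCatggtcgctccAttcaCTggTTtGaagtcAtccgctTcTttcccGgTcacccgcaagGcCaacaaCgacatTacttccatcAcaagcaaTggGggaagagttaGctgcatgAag
RBCS2B: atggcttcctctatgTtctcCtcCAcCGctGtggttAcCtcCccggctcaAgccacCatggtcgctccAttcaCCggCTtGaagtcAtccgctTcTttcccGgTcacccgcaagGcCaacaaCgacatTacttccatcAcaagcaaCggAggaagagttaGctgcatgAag
RBCS3B: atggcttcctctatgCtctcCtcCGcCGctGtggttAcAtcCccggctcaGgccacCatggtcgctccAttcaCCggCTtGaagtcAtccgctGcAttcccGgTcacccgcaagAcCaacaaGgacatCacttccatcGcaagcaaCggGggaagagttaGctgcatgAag
RBCS1B and RBCS2B, the gene with the largest fall and the RBCS gene that was not called, differed at 7 of these 171 positions and at 15 of the 546 bases of their whole coding sequences (97.3% identity). RBCS1A differed from RBCS2B at 24 positions of the stretch and was 90.7% identical to it over 538 aligned coding bases. RBCS3B had 17 mismatches to RBCS2B and 18 to RBCS1B over 561 aligned coding bases (94.3% and 94.1% identity). These identities also count gaps in the alignment as differences, and the mismatches do not. How the authors counted reads that fit more than 1 copy was not stated. Values of RBCS1B, RBCS2B and RBCS3B in particular are therefore uncertain.

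The stretches before the annotated starts of RBCS2B and RBCS1A are shown because these genes differed in response. Each is 250 bases long, 5′ to 3′, in the RefSeq TAIR10.1 assembly, and capitals mark the G-box (CACGTG), the I-box (GATAAG), the TATA box (TATAAA) and the core of the evening element (AATATCT) on either strand. The RBCS2B stretch is chr5:15382072-15382321, minus strand, and ends 93 bases before the start codon.
RBCS2B: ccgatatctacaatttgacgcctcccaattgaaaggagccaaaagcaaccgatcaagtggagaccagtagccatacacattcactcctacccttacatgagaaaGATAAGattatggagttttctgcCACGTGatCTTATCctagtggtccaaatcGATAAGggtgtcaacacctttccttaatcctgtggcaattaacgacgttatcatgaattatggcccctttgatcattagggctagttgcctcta
The RBCS1A stretch is chr1:25049668-25049917, minus strand, and ends 418 bases before the start codon, in the genome.
RBCS1A: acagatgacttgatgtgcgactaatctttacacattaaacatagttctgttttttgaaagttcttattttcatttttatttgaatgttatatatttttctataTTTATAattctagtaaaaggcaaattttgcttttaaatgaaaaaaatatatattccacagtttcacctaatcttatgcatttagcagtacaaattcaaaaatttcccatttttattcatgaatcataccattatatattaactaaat
The RBCS2B stretch holds a G-box with an I-box on each side and a further I-box, and the RBCS1A stretch holds a TATA box. A TATA box also occurs in the 50 bases after the RBCS2B start, and the 250 bases before RBCS3B, which fell like RBCS1A, hold none of the 4 motifs. Because the distances to the start codon differ, these windows do not cover the same part of each promoter, and the letters of one window say nothing of the bases nearer to the other gene.

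RCA, the chaperone that frees Rubisco of inhibitory sugar phosphates, fell by 7.31%. Its level was 7936, 7942 and 8013 CPM in wild-type libraries and 7359, 7385 and 7401 CPM in cpl2-2 libraries (log2 fold change -0.11 ± 0.02 (SE) at an adjusted p of 9.6e-07), with no overlap between the genotypes. RCA missed the threshold with library totals (adjusted p = 0.052). The 4 RBCS genes together took 5.15%, 5.2% and 5.29% in wild-type libraries against 4.46%, 4.32% and 4.56% in those of cpl2-2, a mean of 5.21% ± 0.0668 of each library in the wild type and 4.45% ± 0.118 in the cpl2-2 group (SD, n = 3, exact permutation p = 0.1). The other 37 members took 6.03% ± 0.0136 of each library in the wild type and 5.88% ± 0.0146 in the cpl2-2 group (n = 3, exact permutation p = 0.1), so the RBCS genes made up most of the fall of the whole set, from 11.2% to 10.3%. These shares are not independent of each other, and 12 such shares were compared (exact permutation, adjusted p = 0.11 for each at p = 0.1).

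In the reduction phase, 2 of 5 genes (40%) fell and 3 did not pass the test, beside 44.7% lower among all genes of 100 CPM or more. All but PGK2 averaged 1000 CPM or more, where 66.1% of all genes tested fell. Phosphoglycerate kinase, which phosphorylates phosphoglycerate, is encoded by PGK1 and PGK2, and NADP-dependent glyceraldehyde phosphate dehydrogenase, which carries out the reduction, by GAPA1, GAPA2 and GAPB. GAPA1 (AT3G26650) fell by 14.9%, with 3376, 3344 and 3297 CPM in wild-type libraries and 2855, 2833 and 2834 CPM in cpl2-2 libraries (log2 fold change -0.23 ± 0.02 (SE) at an adjusted p of 3.0e-13). GAPB (AT1G42970) fell by 12.5%, with 4207, 4169 and 4224 CPM in wild-type libraries and 3715, 3707 and 3600.1 CPM in cpl2-2 libraries (log2 fold change -0.19 ± 0.02 (SE) at an adjusted p of 3.8e-11). Both were lower in every cpl2-2 library, while the libraries of GAPA2 (AT1G12900) overlapped, with 2341, 2253 and 2261 CPM in wild-type libraries and 2200.5, 2366 and 2134 CPM in cpl2-2 libraries (log2 fold change -0.03 ± 0.03 (SE) at an adjusted p of 0.37). GAPA2 was called lower without cpl2-2 replicate 2 (log2 fold change -0.08, adjusted p = 0.0050), the library with its highest cpl2-2 value. PGK1 was not called by edgeR (log2 fold change -0.04 ± 0.02 (SE) at an adjusted p of 0.11) although its cpl2-2 libraries were all below the wild type, and it was called by limma-voom (adjusted p = 0.0098). PGK2 averaged 564 ± 8.5 CPM in wild-type libraries and 575 ± 5.22 CPM in cpl2-2 (SD, n = 3) and was not called, except higher with library totals (adjusted p = 0.0066).

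Of the 11 genes of the regeneration phase, 5 (45.5%) fell, 2 (18.2%) rose and 4 did not pass the test. Among all genes of 100 CPM or more, 44.7% fell and 19.2% rose, and among those of 1000 CPM or more 66.1% and 13.6%. TKL2 (AT2G45290, chromosome 2, 18672497 to 18676484), one of a pair of plastid transketolase genes, had the largest change of all members. Its level was 9.69, 11 and 11.5 CPM in wild-type libraries and 30.5, 32.2 and 30 CPM in cpl2-2 libraries (log2 fold change 1.53 ± 0.09 (SE) at an adjusted p of 8.6e-19), a rise of 2.88-fold with no overlap. TKL1 (AT3G60750), the abundant copy, fell by 8.11%, with 3516, 3469 and 3511 CPM in wild-type libraries and 3212, 3228 and 3205 CPM in cpl2-2 libraries (log2 fold change -0.12 ± 0.02 (SE) at an adjusted p of 2.6e-06). Per kilobase of gene length, TKL1 stood at 1095 CPM and TKL2 at 3.19 CPM in the wild type, so TKL2 remained the minor transcript in both genotypes, and the ratio of TKL1 to TKL2 counts went from 327 to 104. PRK (AT1G32060), the kinase that completes ribulose bisphosphate, fell by 14%, with 1937, 1931 and 1962 CPM in wild-type libraries and 1687, 1618 and 1706 CPM in cpl2-2 libraries (log2 fold change -0.22 ± 0.02 (SE) at an adjusted p of 1.3e-10).

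The aldolase genes, whose enzymes join triose phosphates, moved in both directions. FBA2 (AT4G38970), the most abundant, fell from 3649 ± 53 CPM to a mean of 3349 ± 81.4 CPM (SD, n = 3; log2 fold change -0.12 ± 0.02 (SE) at an adjusted p of 4.9e-06). FBA3 (AT2G01140), the least abundant, rose, with 120.3, 106 and 117 CPM in wild-type libraries and 137, 127 and 137 CPM in cpl2-2 libraries (log2 fold change 0.22 ± 0.04 (SE) at an adjusted p of 8.9e-05), and every cpl2-2 library was above every wild-type library. FBA1 (AT2G21330) was not called (log2 fold change -0.04 ± 0.02 (SE) at an adjusted p of 0.21). The plastid fructose bisphosphatase gene (AT3G54050) fell by 7.16% (log2 fold change -0.11 ± 0.02 (SE) at an adjusted p of 0.00044), and the plastid triose phosphate isomerase gene (AT2G21170) by 6.47% (log2 fold change -0.10 ± 0.03 (SE) at an adjusted p of 0.0096). Neither was called with library totals (adjusted p = 0.22 and 0.50), and the isomerase lost its call without cpl2-2 replicate 1 or 3 (adjusted p = 0.057 for both). Sedoheptulose bisphosphatase, an enzyme particular to the Calvin cycle, was not called, with 1522, 1439 and 1465 CPM in wild-type libraries and 1455, 1492 and 1419 CPM in cpl2-2 libraries and overlapping libraries (log2 fold change -0.02 ± 0.02 (SE) at an adjusted p of 0.61). The plastid ribose phosphate isomerase (-0.05, SE 0.03) and ribulose phosphate epimerase genes (0.01, SE 0.03) were not called either, the epimerase except with library totals (0.08, adjusted p = 0.036).

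**Figure D3:**
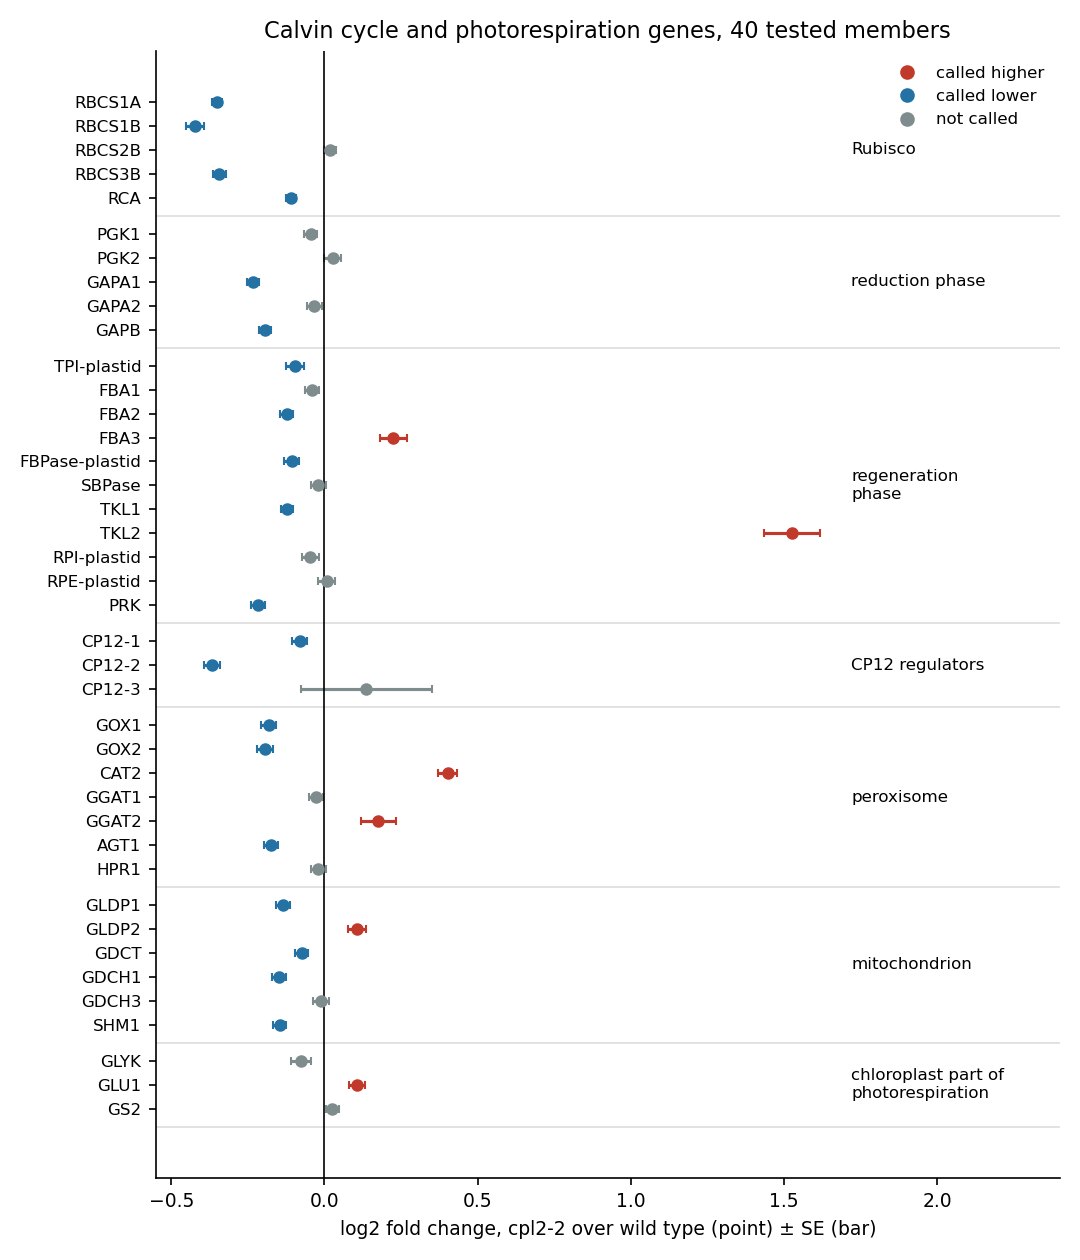
Log2 fold change of cpl2-2 over wild type with its SE for the 40 tested members, grouped by phase or compartment; colours show the calls at an adjusted p under 0.05. Most points lie between -0.25 and 0.25, TKL2 stands apart at 1.53, and RBCS2B is the point near 0 among the RBCS genes.

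CP12 proteins hold glyceraldehyde phosphate dehydrogenase and PRK in an inactive complex in the dark. CP12-2 (AT3G62410) fell by 22.5%, with 1367, 1295 and 1388 CPM in wild-type libraries and 1046, 1047 and 1048 CPM in cpl2-2 libraries (log2 fold change -0.37 ± 0.03 (SE) at an adjusted p of 2.0e-16). Per kilobase of gene length, wild-type levels were 1499 CPM for CP12-1 and 2119 CPM for CP12-2. CP12-1 (AT2G47400) stood at 1361, 1339.7 and 1404 CPM in wild-type libraries and 1289, 1259 and 1335 CPM in cpl2-2 libraries (log2 fold change -0.08 ± 0.03 (SE) at an adjusted p of 0.012). CP12-1 missed the threshold when wild type replicate 3 was left out (adjusted p = 0.11), without either of cpl2-2 replicates 1 and 2 (0.053 and 0.056), and by library totals (0.76). The log2 ratio of CP12-1 to CP12-2 counts was -0.01, 0.05 and 0.02 in wild-type libraries against 0.30, 0.27 and 0.35 in those of cpl2-2, without overlap. CP12-3 (AT1G76560) had between 58 and 106 counts in a library and was not called (log2 fold change 0.14 ± 0.21 (SE) at an adjusted p of 0.69).

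The photorespiratory genes moved in both directions: of 16 tested, 7 fell, 4 rose and 5 did not pass the test. As a group they took 2.103% to 2.119% of the counts of wild-type libraries and 2.098% to 2.105% of those of cpl2-2, ranges that overlap (exact permutation p = 0.2). This depends on the scaling: their summed level on the TMM scale of the calls went from 21623 ± 119.7 CPM to 20537 ± 70.3 CPM, lower in all 3 cpl2-2 libraries (SD, n = 3, exact permutation p = 0.1). As a share of counts the Calvin cycle genes went from 9.13% ± 0.0772 to 8.23% ± 0.112 (SD, n = 3, exact permutation p = 0.1), and their summed level went from 93537 ± 1052 CPM to 80441 ± 969.8 CPM. Of the 24 Calvin cycle genes, 13 (54.2%) fell and 2 (8.33%) rose, and of the 16 photorespiratory genes 43.8% fell and 25% rose. Of all genes tested at 100 CPM or more, 44.7% fell and 19.2% rose. Most genes of both groups averaged 1000 CPM or more, where 66.1% of all genes tested fell and 13.6% rose. Without wild type replicate 1, 2 photorespiratory genes rose rather than 4. Whether the groups differ in their response was not tested.

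The pathway begins with phosphoglycolate phosphatase in the chloroplast, and its gene could not be measured here. PGLP1 (AT5G36700, chromosome 5, 14421182 to 14424610, minus strand) had 2, 5 and 1 counts in wild-type libraries and 2, 8 and 1 in cpl2-2, too few for the test. A second locus, here called PGLP1B (AT5G36790, chromosome 5, 14480482 to 14483927), has the same coding sequence, with 0 mismatches over 1089 bases. PGLP1B held 208, 1311 and 2576 counts in wild-type libraries and 1580, 204 and 1480 in cpl2-2, a 12.6-fold span that does not follow genotype. Its SD of log2 CPM within a genotype was 1.81, the largest of 11129 genes of at least 10 CPM with a count in every library, whose median was 0.083. The sum of both loci went from 66.7 ± 57.6 to 55.4 ± 39.8 CPM (SD, n = 3; exact permutation p = 0.9). The gene AT5G36880, further along the chromosome, held 1694 to 2092 counts in every library.

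**Figure D4:**
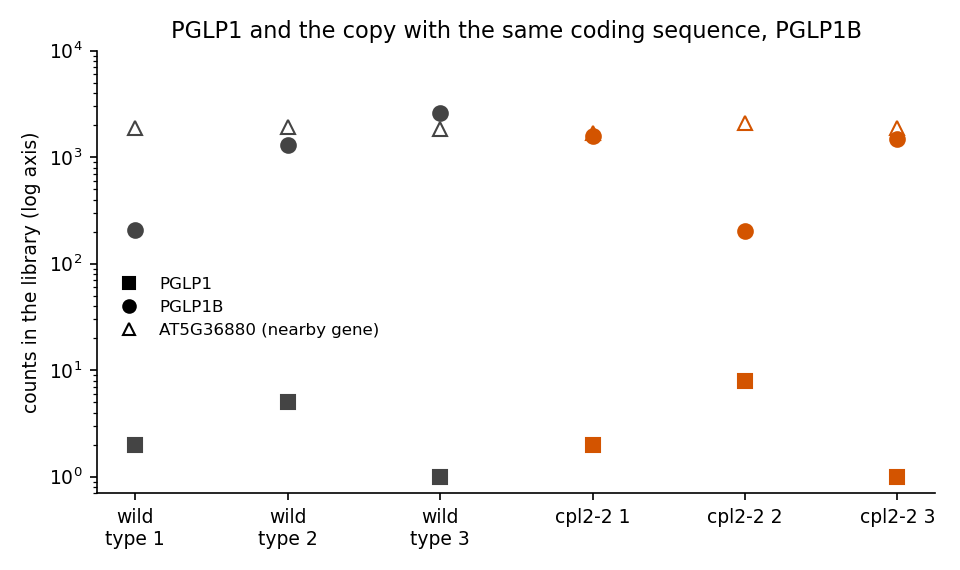
Counts of PGLP1, of PGLP1B, which has the same coding sequence, and of the nearby gene AT5G36880 in each of the 6 libraries (log axis). PGLP1B runs from 204 to 2576 counts with low libraries in both genotypes, PGLP1 stays at or below 8 counts, and AT5G36880 is level.

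In the peroxisome, glycolate oxidase makes glyoxylate and hydrogen peroxide. Its neighbouring genes GOX1 (AT3G14420) and GOX2 (AT3G14415) fell by 11.9% and 12.6%. GOX1 stood at 1861, 1788 and 1833 CPM in wild-type libraries and 1580.3, 1627 and 1624 CPM in cpl2-2 libraries (log2 fold change -0.18 ± 0.02 (SE) at an adjusted p of 1.3e-08), and GOX2 at 966, 961 and 931 CPM in wild-type libraries and 817, 854 and 827 CPM in cpl2-2 libraries (log2 fold change -0.19 ± 0.03 (SE) at an adjusted p of 5.8e-08). The copies are 90.9% identical over 1122 aligned coding bases, and their ratio overlapped between the genotypes (log2 ratio 0.94 ± 0.04 and 0.95 ± 0.02, n = 3, exact permutation p = 0.7). CAT2 (AT4G35090), the catalase that removes photorespiratory hydrogen peroxide, rose by 32.2%. Its level was 322, 323 and 311 CPM in wild-type libraries and 429.9, 413 and 420 CPM in cpl2-2 libraries (log2 fold change 0.40 ± 0.03 (SE) at an adjusted p of 5.4e-15), and all cpl2-2 libraries were above the wild type. CAT2 is 1 of 10 members whose locus overlaps a gene on the opposite strand (with RCA, PGK1, PRK, GOX1, GLDP1, GDCH3, GLU1 and the plastid fructose bisphosphatase and ribose phosphate isomerase genes), and GAPA1, FBA3, GDCH3 and the triose phosphate isomerase gene overlap one on the same strand. The strand setting of the counting was not stated, and reads of such partners cannot be told apart.

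Glyoxylate is converted to glycine by aminotransferases. AGT1 (AT2G13360), which takes the amino group from serine, fell by 11.3%, with 1775, 1707 and 1728 CPM in wild-type libraries and 1539.8, 1555 and 1526 CPM in cpl2-2 libraries (log2 fold change -0.17 ± 0.02 (SE) at an adjusted p of 4.2e-08). GGAT1 (AT1G23310), the main glutamate-dependent enzyme, was not called (log2 fold change -0.03 ± 0.02 (SE) at an adjusted p of 0.43). Its minor relative GGAT2 (AT1G70580) stood at 55, 58.4 and 54.7 CPM in wild-type libraries and 61.2, 66.8 and 61.6 CPM in cpl2-2 libraries and was called higher (log2 fold change 0.18 ± 0.06 (SE) at an adjusted p of 0.017), a call lost without wild type replicates 1 or 3 (adjusted p = 0.073 for both) or cpl2-2 replicate 2 (0.12). HPR1 (AT1G68010), hydroxypyruvate reductase, was not called and its libraries overlapped, with 1215, 1196 and 1167 CPM in wild-type libraries and 1171, 1173 and 1184 CPM in cpl2-2 libraries.

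In the mitochondrion, glycine decarboxylase and serine hydroxymethyltransferase turn glycine into serine, and 4 of their 6 genes (66.7%) fell. All but GLDP2 averaged 1000 CPM or more, where 66.1% of all genes tested fell. SHM1 (AT4G37930) fell by 9.6%, with 2329, 2313 and 2307 CPM in wild-type libraries and 2089, 2132 and 2062 CPM in cpl2-2 libraries (log2 fold change -0.15 ± 0.02 (SE) at an adjusted p of 4.8e-07). GLDP1 (AT4G33010), which encodes the P protein of the decarboxylase, fell by 8.96%, with 2288, 2267 and 2319 CPM in wild-type libraries and 2112, 2067 and 2079 CPM in cpl2-2 libraries (log2 fold change -0.14 ± 0.02 (SE) at an adjusted p of 2.0e-06). Its less abundant partner GLDP2 (AT2G26080) rose by 7.63%, with 381, 389 and 400.3 CPM in wild-type libraries and 423, 410.3 and 426 CPM in cpl2-2 libraries (log2 fold change 0.11 ± 0.03 (SE) at an adjusted p of 0.0062). GLDP2 missed the threshold when wild type replicate 1 was left out (adjusted p = 0.070). The log2 ratio of GLDP1 to GLDP2 counts was 2.59, 2.54 and 2.53 in wild-type libraries against 2.32, 2.33 and 2.29 in those of cpl2-2. Among the genes for the H protein, GDCH1 (AT2G35370) fell from 1765 ± 11.5 CPM to a mean of 1592 ± 15.4 CPM (SD, n = 3; log2 fold change -0.15 ± 0.02 (SE) at an adjusted p of 6.4e-07), and GDCH3 (AT1G32470) was not called (log2 fold change -0.01 ± 0.03 (SE) at an adjusted p of 0.79). GDCT (AT1G11860), the T protein, fell by 5.0% (log2 fold change -0.07 ± 0.02 (SE) at an adjusted p of 0.0050), but not with library totals (adjusted p = 0.87).

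The last steps return glycerate and ammonia to the chloroplast, and of their 3 tested genes 1 rose and 2 did not pass the test. Among all genes of 100 CPM or more, 19.2% rose. GLU1 (AT5G04140), ferredoxin-dependent glutamate synthase, rose by 7.73%, with 777, 759 and 763 CPM in wild-type libraries and 817, 837 and 823 CPM in cpl2-2 libraries (log2 fold change 0.11 ± 0.03 (SE) at an adjusted p of 0.0012). GS2 (AT5G35630), the plastid glutamine synthetase, stood at 2672, 2687 and 2679 CPM in wild-type libraries and 2721, 2751 and 2712 CPM in cpl2-2 libraries. All cpl2-2 libraries of GS2 were above the wild type, but it was called only with library totals (log2 fold change 0.03 ± 0.02 (SE) at an adjusted p of 0.39; 0.09, adjusted p = 0.00023). GLYK (AT1G80380), glycerate kinase, stood at 310.2, 299 and 305 CPM in wild-type libraries and 283, 294 and 290.4 CPM in cpl2-2 libraries and was not called (log2 fold change -0.08 ± 0.03 (SE) at an adjusted p of 0.070), except without cpl2-2 replicate 2 (adjusted p = 0.042), although all its cpl2-2 libraries were below the wild type. The share of all counts from the 4 chloroplast genes of photorespiration was 0.366% ± 0.00144 in the wild type, against 0.393% ± 0.00275 in cpl2-2 (n = 3, exact permutation p = 0.1). On the TMM scale their sum was 3751 ± 7.28 and 3843 ± 33.7 CPM, so a difference of 7.38% in shares was 2.45% on that scale.

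Several enzymes are encoded by more than 1 member, and in 11 of the 13 ratios examined the libraries of the genotypes did not overlap. Of single genes, 39% of all tested did not overlap, and ratios between other genes were not examined for comparison. Each of the 11 had an exact permutation p of 0.1, the smallest possible, and an adjusted p of 0.12. The ratio of GAPA1 to GAPA2 went from 1.46 to 1.27, that of GGAT1 to GGAT2 from 22.1 to 19.2, that of GLDP1 to GLDP2 from 5.88 to 4.97 and that of GDCH1 to GDCH3 from 1.57 to 1.43. In these pairs, as in PGK1 and PGK2 and in TKL1 and TKL2, the gene with more counts was lower relative to its partner in all 3 cpl2-2 libraries, and so was FBA2 relative to FBA1. The ratio of GOX1 to GOX2 overlapped between the genotypes. The ratio of RBCS1A to the other RBCS genes together went from 1.13 to 1.04. Within that family the order did not hold throughout. RBCS1B, the least abundant, fell the most (-0.42), and the more abundant RBCS2B was not called (0.02). CP12-1 and CP12-2 had nearly equal counts in the wild type, and their ratio went from 1.01 to 1.24. Per kilobase CP12-2 was the more abundant in the wild type, at 2119 CPM beside 1499 CPM for CP12-1. By that measure, too, the more abundant gene of the pair was the one lower relative to its partner. The ratio of GAPA1 plus GAPA2 to GAPB, subunits of the same enzyme, moved by 0.04 on the log2 scale, the smallest of the 11. Per kilobase, wild-type levels ran from 22340.3 CPM for RBCS1A, 10011 for RBCS3B and 7841 for RBCS2B down to 4.8 for CP12-3 and 3.19 for TKL2 among the tested members. Across the 40, that level and the log2 fold change had a Spearman rho of -0.65, a description over genes that share the same libraries. Genes that are no members showed a like trend with mean CPM. Their median log2 fold change was 0.03 below 10 CPM, -0.003 from 10 to 100, -0.07 from 100 to 1000 and -0.17 at 1000 CPM or more.

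**Figure D5:**
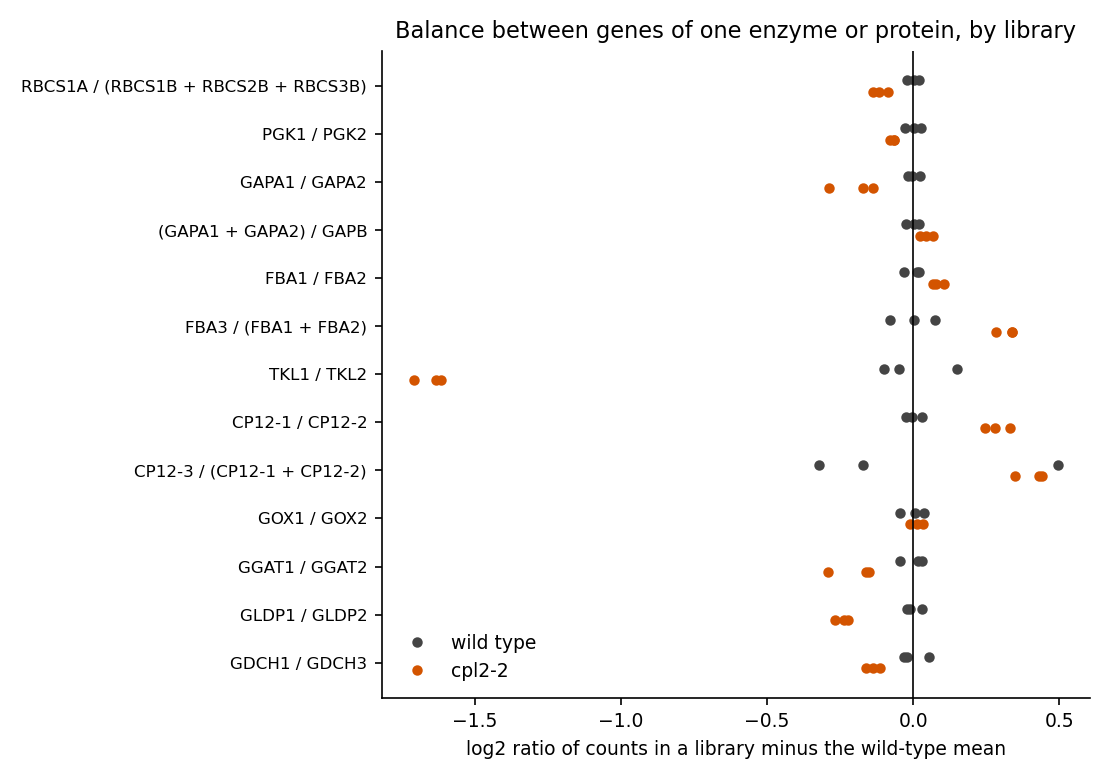
Log2 ratio of counts between genes of the same enzyme or protein family in each library, minus the wild-type mean of that ratio; 3 points per genotype. The genotypes are separate in every line but those of CP12-3 and of GOX1 and GOX2, and the shift of TKL1 to TKL2 is the largest at -1.65.

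Genes that work beside these enzymes were counted in 4 lists, which stand beside 14.1% higher and 13.3% lower among all genes tested, and 19.2% and 44.7% among those of 100 CPM or more. These shares are for the TMM scaling. With library totals 1666 of the 19302 genes tested were lower, fewer than were higher. Of 16 cytosolic or other plastid counterparts of Calvin cycle enzymes, 6 (37.5%) rose and 5 (31.2%) fell, with a median log2 fold change of 0.09. The glycolytic dehydrogenase genes GAPC1 (0.29, SE 0.03) and GAPC2 (0.26, SE 0.03) rose, whereas the cytosolic fructose bisphosphatase gene of sucrose synthesis, AT1G43670, fell from 570.2 ± 5.57 CPM to a mean of 441 ± 9.44 CPM (SD, n = 3; log2 fold change -0.37 ± 0.03 (SE) at an adjusted p of 8.8e-15), and so did the cytosolic aldolase gene FBA5 (-0.17). Of 21 further photorespiratory isoforms and transporters, 5 (23.8%) rose and 4 (19%) fell, with a median of 0.00. CAT3, the most abundant catalase transcript, rose from 1312 ± 12 CPM to a mean of 1749.8 ± 21.8 CPM (log2 fold change 0.42 ± 0.02 (SE) at an adjusted p of 5.7e-20), as did the mitochondrial carrier gene BOU (0.19) and GLU2, the relative of GLU1 (0.34), while CAT1 fell (-0.48). With library totals 9 of this list rose and 1 fell.

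Of 14 genes for Rubisco assembly and carbonic anhydrase, 9 (64.3%) fell and 1 (7.14%) rose, with a median of -0.11, and with library totals 6 fell and 3 rose. The carbonic anhydrase gene BCA1 fell from 5767 ± 49 CPM to a mean of 4786 ± 45.2 CPM (SD, n = 3; log2 fold change -0.27 ± 0.02 (SE) at an adjusted p of 1.1e-16). The chaperonin genes CPN20 (-0.23) and CPN60A1 (-0.17) and RBCX1 (-0.64), a chaperone of the Rubisco large subunit, fell as well. Of 11 genes of the thioredoxin system, which activates Calvin cycle enzymes in the light, and the triose phosphate translocator, 4 (36.4%) fell and 0 rose (median -0.07). These were NTRC (-0.25), FTRA2 (-0.15), TRXF1 (-0.13) and the translocator gene TPT (-0.10). With library totals 1 gene of this list fell and 3 rose, and among all genes tested fewer fell than rose.

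Promoter windows from 250 bases before to 50 after the annotated start were searched on both strands for 4 motifs. The G-box was in 8 of 41 member windows (19.5%) and in 7.68% of 27443 windows of protein-coding genes, the I-box in 9 (22.0%) and 14.6%, the TATA box in 18 (43.9%) and 52.1%, and the evening element core in 5 (12.2%) and 11.5%. The G-box windows were those of RBCS2B, the plastid fructose bisphosphatase gene, TKL2, PRK, CP12-1, GGAT1, GGAT2 and GLDP1, which include genes called higher, lower and neither. The motifs are given by their letters and not as bound sites.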

How the data were processed

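RNA-seq libraries from 3 wild-type and 3 cpl2-2 samples were aligned by the authors to TAIR10 with HISAT2 2.0.5, per the submitters' processing notes. The deposited table holds raw, not normalized counts per gene, with a gene length in bases. The counting program, its strand setting and its handling of multiply aligned reads are, in the sources used here, not given. The labels do not say that the samples were grown apart, so p-values measure the spread between these samples, which may be technical.

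Genes were filtered by filterByExpr, scaled by TMM and tested with edgeR 4.0.16 in R 4.3.3 (quasi-likelihood test, genotype only, Benjamini-Hochberg adjustment over all 19302 genes tested, threshold 0.05). The common biological coefficient of variation was 0.0566. Library-wise shares and count ratios were compared by two-sided exact permutation tests in scipy 1.17.1. Alternatives were library totals, DESeq2 size factors, DESeq2 1.42.0, limma-voom 3.58.1, no filter, a replicate block and leaving out each library. CPM per kilobase divides by the table's gene length.

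Coordinates, coding sequences and promoter windows come from RefSeq TAIR10.1, whose coordinates equal those of the table for all 41 members. Identity was measured on coding sequences with blastn 2.17.0, in place of a planned comparison of proteins, which was not run. All 41 members were to be named, with up to 4 called genes of smallest p from each related list, CPL2 and rbcL. The members and lists were chosen with earlier results of these data known. Replicate numbers did not pair the samples.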

Additional observations from a re-analysis of the deposited data

How the results depend on the processing

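Scaling by library totals alone moved the median of all genes by 0.07 on the log2 scale. There 1666 of all genes tested were lower, fewer than were higher, and the median of all genes was 0.066. Of the members, 10 were higher, 5 Calvin cycle members among them, and the median of the members was -0.0070. In that setting 9 photorespiratory isoforms and transporters were higher and 1 lower, 3 Rubisco assembly and carbonic anhydrase genes were higher, and 3 thioredoxin system genes were higher and 1 lower. Over the 12 alternatives, 26 of 40 members kept their call in each, and 14 changed it in at least 1. The sign changed in 10 members, none of them called in either setting. With library totals the log2 fold change turned positive for PGK1 (0.024), GAPA2 (0.035), FBA1 (0.029), sedoheptulose bisphosphatase (0.049), the plastid ribose phosphate isomerase (0.022), GGAT1 (0.040), HPR1 (0.048) and GDCH3 (0.057). Leaving out 1 library at a time, photorespiratory members called higher ranged from 2 to 4, and thioredoxin system genes called higher from 0 to 1. The log2 fold change ranged from -0.81 to 0.080 for rbcL, -0.79 to 0.56 for PGLP1B, -0.026 to 0.040 for the ribulose phosphate epimerase, -0.020 to 0.45 for CP12-3 and -0.046 to 0.0066 for GDCH3.

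Relative to a total without the 100 most abundant genes that are no members, the shares moved by -1.33 percentage points for all members, -1.28 for the Calvin cycle, -0.0523 for photorespiration, -1.04 for the RBCS genes and -0.292 for the members without them, against -0.909, -0.900, -0.00946, -0.766 and -0.143 over all counts. With TMM-scaled library sizes as the total, chosen after seeing the data, they moved by -1.42, -1.31, -0.109, -0.995 and -0.424. The cause was not tested.

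With the replicate number as a block, 5228 genes, 6 members higher and 20 lower were called, and all 40 members kept their call. Same-numbered libraries had correlations of -0.012, 0.010 and 0.013 between their deviations from the group means, so the numbers only name the samples. Counts limit CP12-3 and PGLP1, and copies with alike sequence limit RBCS1B, RBCS2B, RBCS3B and PGLP1. PGLP1 and PGLP1B were also summed, an alternative chosen after seeing the data, as was leaving out the close copies.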

Other observations

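The chloroplast gene rbcL, which encodes the Rubisco large subunit, had 714, 240 and 324 counts in wild-type libraries and 307, 286 and 285 in cpl2-2 libraries. It averaged 17.8 CPM over the 6 libraries, beside 25262 CPM for RBCS1A. How far these libraries captured chloroplast transcripts was not tested, so the rbcL counts may not reflect its level. The libraries overlapped, and wild type replicate 1 stood far above the other 5. The edgeR quasi-likelihood test called rbcL lower (log2 fold change -0.52, adjusted p = 0.022), whereas DESeq2 (adjusted p = 0.50) and limma-voom (0.16) did not, and without wild type replicate 1 the log2 fold change was 0.08 (adjusted p = 0.71). PGLP1B was not called in that edgeR test (log2 fold change -0.28, adjusted p = 0.60), but was when wild type replicate 1 was left out (-0.79, adjusted p = 0.038) or low counts were not filtered (adjusted p = 8.7e-06). The edgeR test without the filter also gave a far smaller adjusted p for RBCS1A, 2.3e-151 beside 3.8e-23 with it. By exact permutation, PGLP1B had a p of 0.9. The log2 fold change of PGLP1B turned positive when wild type replicate 3 was left out (0.56, adjusted p = 0.25) or when cpl2-2 replicate 2 was (0.23, adjusted p = 0.55).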
